A study of Rattus norvegicus with 24 samples.

Results

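The genes described here encode the voltage-gated sodium and calcium channels of excitable cells, the calcium release channels of the endoplasmic reticulum and the pumps that return calcium to its stores or expel it from the cell. They were the probe sets, groups of short oligonucleotides that together measure 1 transcript, with exactly 1 gene symbol beginning with Scn, Cacn, Hcn, Ryr, Itpr, Atp2a or Atp2b. For each gene the probe set with the highest mean signal over all arrays was kept. The rule found 38 genes among the 4736 with a symbol of their own, measured by 73 of 8740 probe sets. They were 9 sodium channel alpha subunits, 1 sodium channel beta subunit, 3 Scnn1 genes, 8 calcium channel alpha1 subunits, 4 beta subunits, Cacna2d1, Cacng1, Ryr2, 3 IP3 receptors, 3 SERCA pumps and 4 plasma membrane calcium pumps. No probe set with a single Hcn symbol met the rule, so pacemaker channels are not described. The 3 Scnn1 genes entered by their prefix, since they encode the epithelial sodium channel, which is not gated by voltage.

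Whole rat brain was measured on 24 single-colour oligonucleotide arrays, 1 array for each sample, with total RNA. Animals breathed halothane at 0.8% or isoflurane at 1.0%, both volatile anaesthetics, for 90 min at a time, 2 times a day with 3 h of recovery in between. Exposures numbered 5 over 2.5 days or 10 over 5 days, which gave 4 exposed groups of 3 arrays each. The 12 control arrays came from animals given halothane for 3 min before perfusion with ice-cold saline, so the controls also received an anaesthetic. The concentrations of the agents differed, and strain, sex, age and the time between the last exposure and collection were not given in the sources used here. Whether the replicates of a group came from different animals is not stated, so the p-values refer only to the scatter among these arrays, some of which may be technical. In whole tissue, fewer cells of a type and less RNA per cell cannot be told apart. The arrays had medians of 53.5 to 64.9 signal units and a common trimmed mean of 150.1 to 150.2, and no array correlated below 0.931 with another. The level of the bacterial spike-in controls fell into a high set of 9 arrays and a low set of 15, and replicate 3 of each exposed group and controls 1, 3, 10, 11 and 12 were the high arrays.

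Voltage-gated sodium channels open on depolarisation and carry the upstroke of the action potential, and their alpha subunit forms the pore. Voltage-gated calcium channels turn depolarisation into calcium entry, which triggers transmitter release, dendritic spikes and changes in gene expression. IP3 and ryanodine receptors release calcium from the endoplasmic reticulum, SERCA pumps refill it and plasma membrane calcium pumps move calcium out of the cell. Volatile anaesthetics are known to inhibit several of these channels, presynaptic sodium and calcium channels among them.

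The upstream sequences of Itpr1 and Scn7a are shown because these genes had the lowest p-values of the set after 10 halothane exposures. Each is the 250 bases before a transcript start given by RefSeq (build GRCr8), at chr4:142743190-142743439 on the plus strand for Itpr1 and chr3:71846285-71846534 on the minus strand for Scn7a, and each overlaps the span annotated for the whole gene. Capitals mark TATANA in Itpr1 and the reverse complement of GGGCGG in Scn7a.
Itpr1: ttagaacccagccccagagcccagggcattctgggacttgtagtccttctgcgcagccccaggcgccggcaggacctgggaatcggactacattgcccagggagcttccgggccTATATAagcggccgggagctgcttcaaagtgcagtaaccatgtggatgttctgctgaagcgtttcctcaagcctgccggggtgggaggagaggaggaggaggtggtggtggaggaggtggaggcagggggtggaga
Scn7a: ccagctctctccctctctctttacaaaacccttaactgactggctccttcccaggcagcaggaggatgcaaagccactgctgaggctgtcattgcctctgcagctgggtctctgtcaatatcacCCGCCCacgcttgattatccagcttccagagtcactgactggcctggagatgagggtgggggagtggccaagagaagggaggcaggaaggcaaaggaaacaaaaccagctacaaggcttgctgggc
Upstream sequences were found for 30 of the 38 genes, and motifs were searched on both strands. The GC box GGGCGG, a binding site of Sp1, was present upstream of 17 of the 30, or 56.7%, against 30.5% of all 33469 RefSeq upstream sequences. The Egr site GCGGGGGCG, which can overlap a GC box, was present upstream of 6 of the 30, against 2.45% of all. The sequences of the 30 genes had a median GC content of 65.6%, against 51.2% for all, and the motifs were not compared at matched GC content. Each of the 30 genes counted with 1 sequence, while the 33469 were not reduced to 1 per gene or to genes on the arrays. The TATA box TATAAA was present upstream of 1 of the 30, against 12.9% of all. The wider form TATANA, added after the Itpr1 sequence was read and containing the first, was present upstream of 7 of the 30, against 24.2% of all. The cyclic AMP response element TGACGTCA was found upstream of none of the 30, against 1.59% of all. The AP-1 site TGANTCA was found upstream of 2 of the 30, against 6.34% of all.

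None of the channel and pump genes differed from control at adjusted p under 0.05 after any exposure series. A signal floor of 16.5 units, the 25th percentile of the table, was applied, and 36 of the 38 genes exceeded it on at least 3 arrays and were tested with limma among 7389 probe sets. Scnn1b, a subunit of the epithelial channel, and Cacna1s, the skeletal muscle L-type pore, exceeded the floor on 0 arrays and were not tested. Of the 36 genes, 30 exceeded the floor on all 24 arrays. After 5 halothane exposures 0 of 36 genes passed, against 0.0135% of all probe sets, and after 10 halothane exposures 0 of 36 passed, against 0.0406%. After 5 and after 10 isoflurane exposures 0 of 36 passed, against 0% of all probe sets in each, and likewise for all exposed arrays together, again against 0%. At unadjusted p under 0.05 the counts were 2 of 36 genes after 5 halothane exposures (background 3.53%), 4 after 10 halothane exposures (7.52%), 0 after 5 isoflurane exposures (2.14%), 4 after 10 isoflurane exposures (9.05%) and 6 for all exposed arrays (8.44%). As shares of the 36 genes these were 5.56%, 11.1%, 0%, 11.1% and 16.7%. The 6 genes for all exposed arrays were Itpr1 with a log2 fold change of 0.36, Scn1a with 0.43, Cacna1h with 0.37, Atp2a3 with 0.35, Scn7a with -0.32 and Cacna1a with -0.17, with limma adjusted p between 0.361 and 0.517. For Itpr1 this value was 0.11 on the low spike-in arrays alone and 0.75 on the high ones alone.

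The median log2 fold change of the 36 genes was 0.11 after 5 halothane exposures, 0.04 after 5 isoflurane exposures and 0.11 after 10 isoflurane exposures. Over all 7389 probe sets the medians in the same comparisons were -0.0077, 0.0064 and -0.0027. After 10 halothane exposures the median of the 36 genes was -0.01, which became 0.03 after median centring, beside -0.03 for all probe sets. Over the 15 other settings the median of the genes ran from -0.03 to 0.23 after 5 halothane, from -0.05 to 0.07 after 10 halothane, from 0.0057 to 0.19 after 5 isoflurane and from -0.02 to 0.17 after 10 isoflurane exposures, so its sign held under all of them only after 5 isoflurane exposures. No gene had all 3 exposed arrays of any group above, or all 3 below, every control, where 0.352%, 1.07%, 0.162% and 0.88% of all probe sets did, in the order 5 and 10 halothane, 5 and 10 isoflurane exposures. The 95% intervals of the fold changes had a median half-width of 0.404 log2 units. They lay wholly within a 2-fold change for 32 of 36 genes after 5 halothane exposures, 31 after 10 halothane exposures, 34 after 5 isoflurane exposures and 30 after 10 isoflurane exposures. For all exposed arrays against control, the intervals of all 36 tested genes lay within 2-fold and those of 27 within 1.5-fold.

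**Figure D1:**
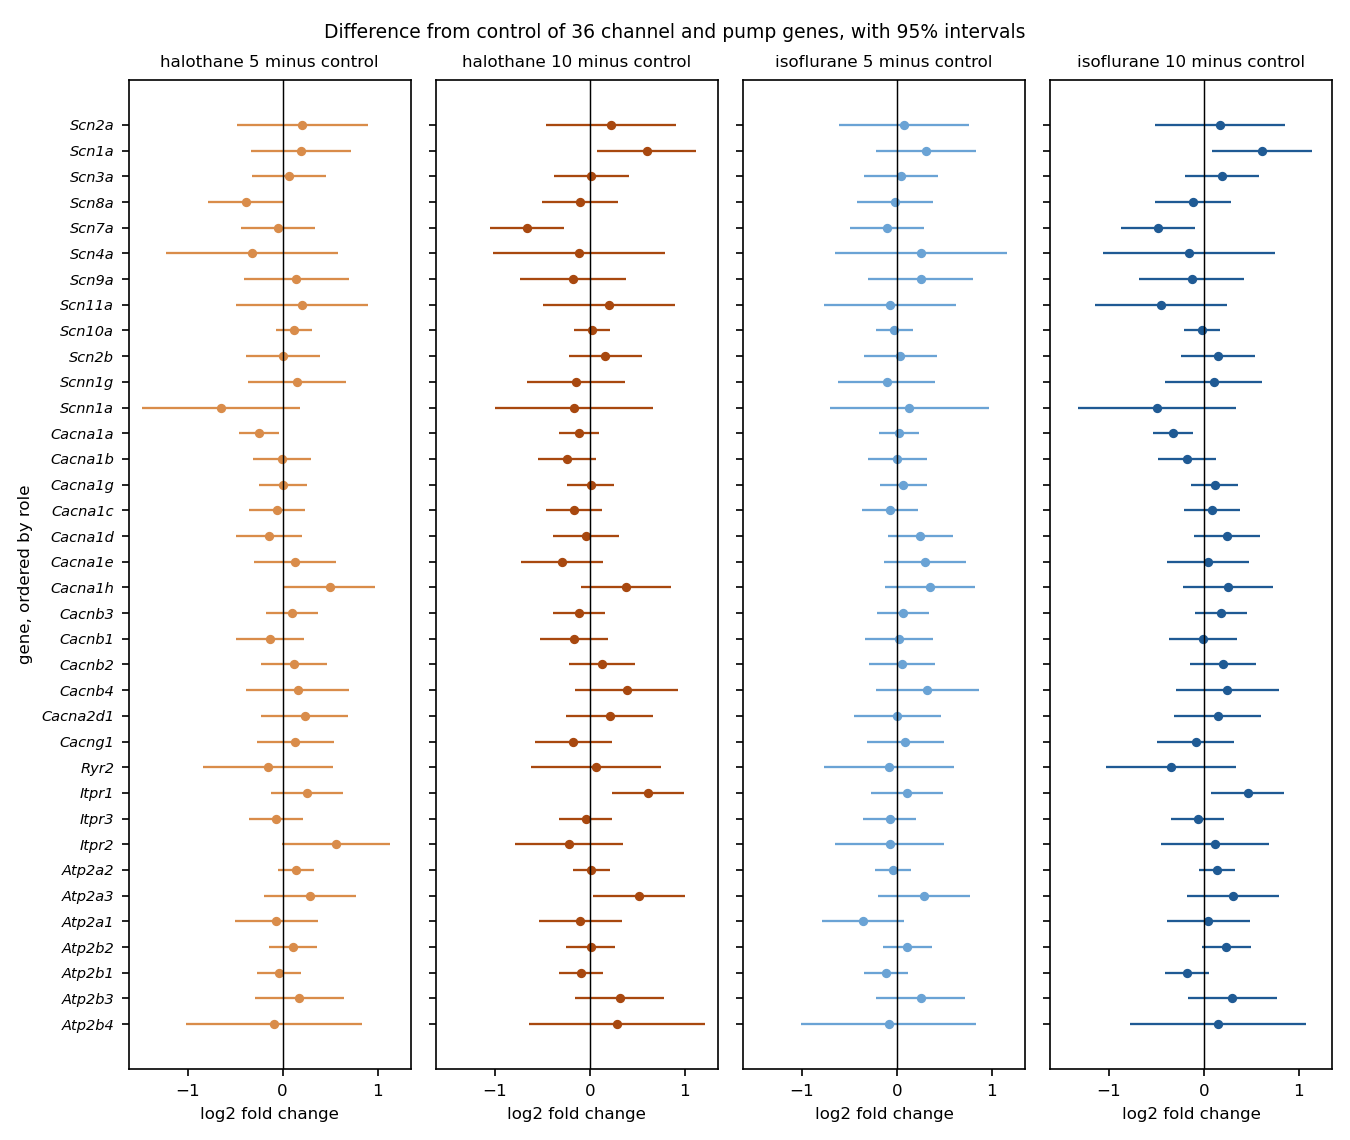
Log2 fold change against control (horizontal axis) of the 36 tested genes, ordered by role down the page, in 4 panels for 5 and 10 halothane and 5 and 10 isoflurane exposures; points are limma estimates and lines are 95% intervals. Most lines cross 0, and the points farthest from it among the sodium channel alpha subunits after 10 exposures of either agent belong to Scn1a, above 0, and Scn7a, below 0.

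Among the 9 sodium channel alpha subunits, Scn7a was lower and Scn1a higher after 10 exposures of either agent at unadjusted p, and neither passed the adjusted threshold. Scn7a encodes Nax, an atypical alpha subunit known as a sodium-level sensor in glia of the circumventricular organs. Its signal was 113.6, 89.5 and 84.9 units after 5 halothane exposures and 67.7, 72.2 and 48.9 after 10. It was 113.8, 95.2 and 71.3 after 5 isoflurane exposures and 61.1, 95.9 and 59.8 after 10, while controls spanned 63.7 to 124.6 with a median of 99.75. After 10 halothane exposures 1 array lay below every control and the other 2 near the low end of the control range, and after 10 isoflurane exposures 2 arrays lay below every control and 1 in the middle. The limma log2 fold change was -0.66 ± 0.19 (SE; 0.631-fold; adjusted p = 0.282) after 10 halothane exposures and -0.48 ± 0.19 (0.717-fold; adjusted p = 0.434) after 10 isoflurane exposures. These comparisons share the control arrays. After 5 exposures the Scn7a fold change was -0.05 with halothane and -0.10 with isoflurane. The other Scn7a probe set did not exceed the floor often enough to be tested.

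Scn1a encodes Nav1.1, the alpha subunit that drives firing of fast-spiking inhibitory neurons and of cerebellar Purkinje cells. Its signal was 345.4, 182.8 and 159.1 units after 5 halothane exposures and 223.1, 372.9 and 279.9 after 10. It was 170.5, 287.7 and 257.2 after 5 isoflurane exposures and 444.4, 220.4 and 243.6 after 10, while controls spanned 124.8 to 255.2 with a median of 199.25. Each exposed group had at least 1 array above every control, and each also had at least 1 inside the control range. The limma log2 fold change was 0.60 ± 0.25 (adjusted p = 0.618) after 10 halothane exposures, 0.61 ± 0.25 (adjusted p = 0.462) after 10 isoflurane exposures and 0.43 ± 0.16 (adjusted p = 0.441) for all exposed arrays. Scn1a, Scn2a, Scn3a, Scn7a and Scn9a are neighbours on 1 chromosome in GRCr8, yet the signs of their fold changes differed: after 10 halothane exposures Scn2a had 0.22, Scn3a 0.02 and Scn9a -0.18.

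The other alpha subunits gave values within their spread. Scn2a, which encodes Nav1.2 of excitatory axons, averaged 478 ± 182 units after 10 halothane and 453 ± 156 after 10 isoflurane exposures (SD, n = 3 each), against 408 ± 133 in controls (SD, n = 12). Scn8a, the Nav1.6 channel of the axon initial segment, had a log2 fold change of -0.39 ± 0.19 after 5 halothane exposures (adjusted p = 1). It lay between -0.12 and -0.02 in the other groups. The other tested Scn8a probe set had the opposite sign after 5 halothane exposures, with 0.14 ± 0.23. That probe set had -0.36 ± 0.23 after 10 isoflurane exposures. Scn3a, an alpha subunit strongest in the developing brain, had fold changes of 0.02 to 0.19 over the 4 groups. Scn4a, the skeletal muscle channel, had fold changes between -0.32 and 0.25 with an SE of 0.44. Scn9a, which encodes the peripheral nerve channel Nav1.7, lay between -0.18 and 0.25 with an SE of 0.27. The sensory neuron channels Scn10a and Scn11a exceeded the floor on 3 and on 18 of 24 arrays, so the floor holds their fold changes towards 0, and these ran from -0.02 to 0.12 for Scn10a and from -0.46 to 0.20 for Scn11a.

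Scn2b, an accessory subunit that tethers the sodium channel at the membrane, averaged 9.68 ± 7.94 units in controls and exceeded the floor on 6 arrays, and its fold change was 0.16 ± 0.19 after 10 halothane exposures. The epithelial channel subunits Scnn1a and Scnn1g had fold changes of -0.65 ± 0.40 and 0.15 ± 0.25 after 5 halothane exposures. In controls Scnn1a varied between 20 and 88.9 units, and Scnn1g averaged 46.8 ± 10.5. Scnn1b, which was not tested, averaged 7.70 ± 2.30 units there. Neither gene had an unadjusted p under 0.05 in any comparison with control.

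**Figure D2:**
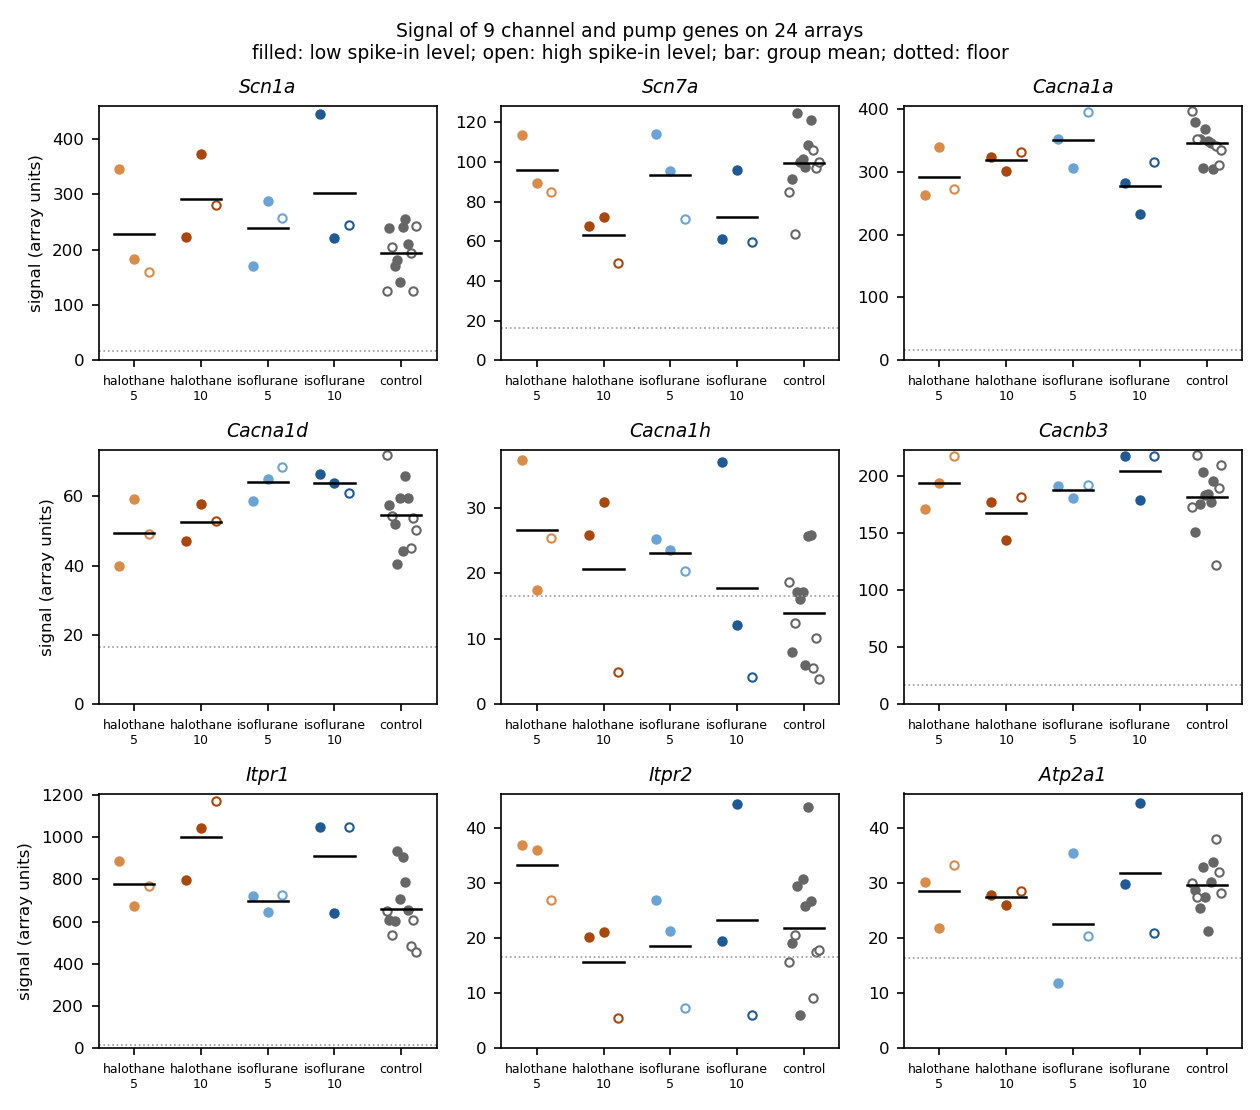
Signal in array units (vertical axes, from 0) of 9 genes on each of the 24 arrays, by group with exposed groups left of controls; each point is 1 array, filled for the low and open for the high spike-in level, bars are group means and the dotted line is the floor of 16.5. In every panel each exposed group has at least 1 array inside the control range, and single arrays of Scn1a, up to 444.4 against a control maximum of 255.2, lie well outside it.

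Of the 7 calcium channel alpha1 subunits tested, Cacna1a, Cacna1h and Cacna1d were those with the lowest p-values. Cacna1a encodes Cav2.1, the P/Q-type channel of presynaptic terminals and Purkinje cells. Its signal was 263.3, 338.5 and 272.4 units after 5 halothane exposures and 323.7, 300.3 and 330.8 after 10. It was 351.2, 305.8 and 394.9 after 5 isoflurane exposures and 281.9, 233.1 and 315.1 after 10, while controls spanned 304.9 to 396.9 with a median of 346.7. After 5 halothane and after 10 isoflurane exposures 2 of 3 arrays lay below every control, and after 5 isoflurane exposures all 3 lay inside the control range. The limma log2 fold change was -0.25 ± 0.10 (adjusted p = 1) after 5 halothane exposures and -0.32 ± 0.10 (0.799-fold; adjusted p = 0.338) after 10 isoflurane exposures. The other 3 Cacna1a probe sets gave 0.16, 0.11 and 0.13 after 5 halothane exposures, all of the opposite sign, and 0.17, -0.14 and -0.33 after 10 isoflurane exposures, where 2 of the 3 shared the sign. With the mean over all Cacna1a probe sets the fold change after 5 halothane exposures was 0.037.

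Cacna1h encodes Cav3.2, a low-threshold T-type channel. It was close to the floor, which it exceeded on 14 of 24 arrays. It gave 37.2, 17.5 and 25.3 units after 5 halothane, 25.9, 30.8 and 5 after 10 halothane, 25.2, 23.6 and 20.4 after 5 isoflurane and 37, 12.1 and 4.1 after 10 isoflurane exposures, while controls spanned 3.8 to 25.9 with a median of 14.25. All exposed groups overlapped the controls. On the floored scale the limma fold change was 0.49 ± 0.23 (adjusted p = 1) after 5 halothane exposures and 0.35 ± 0.23 (adjusted p = 1) after 5 isoflurane exposures, and the floor understates differences of such a dim probe set.

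Cacna1d, the Cav1.3 L-type channel that supports spontaneous firing, had 58.7, 64.9 and 68.5 units after 5 isoflurane exposures and 66.5, 63.8 and 60.9 after 10. It had 40, 59.1 and 49.1 after 5 halothane exposures and 47.2, 57.8 and 53 after 10, while controls spanned 40.5 to 71.9 with a median of 54.05. The 6 isoflurane arrays all lay above the control median and inside the control range. The limma fold change was 0.25 ± 0.17 (adjusted p = 1) after 5 isoflurane exposures. Of the other 4 Cacna1d probe sets, 2 were tested and gave -0.08 and -0.04 in the same comparison.

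None of the remaining pore subunits had an unadjusted p under 0.05 against control at the probe set kept for the gene. Cacna1b, the N-type channel of nerve terminals, had fold changes of -0.24 ± 0.15 after 10 halothane and -0.18 ± 0.15 after 10 isoflurane exposures. Its values after 5 exposures were -0.0048 with halothane and 0.0066 with isoflurane. The other Cacna1b probe set had -0.55 ± 0.26 after 5 halothane (unadjusted limma p = 0.045) and -0.04 after 5 isoflurane exposures. After 10 exposures this probe set had -0.30 with halothane and -0.26 with isoflurane. Cacna1c, the other main neuronal L-type channel, lay between -0.16 and 0.08 over the 4 groups, while another Cacna1c probe set had -0.69 ± 0.30 (limma adjusted p = 0.495) after 10 isoflurane exposures. Cacna1g, the thalamic T-type channel, had 0.00 and 0.01 after 5 and 10 halothane exposures and 0.07 and 0.11 after 5 and 10 isoflurane exposures. Cacna1e, the R-type channel, had 0.13, -0.29, 0.29 and 0.04 in the same order, each with an SE of 0.21. Cacna1s, which was not tested, averaged 7.19 ± 2.42 units in controls.

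The accessory calcium channel subunits bring the pore to the membrane and tune its gating. Of the 4 beta subunits, 3 had positive fold changes after 5 halothane and after 10 isoflurane exposures, 2 after 10 halothane and 4 after 5 isoflurane exposures, and none had an unadjusted p under 0.05. Cacnb3 had 176.6, 144 and 181.6 units after 10 halothane exposures, against 217.6, 178.7 and 216.8 after 10 isoflurane exposures, and controls spanned 122.2 to 218.1 with a median of 183.5. The halothane and isoflurane arrays overlapped, and the difference of halothane from isoflurane was -0.29 ± 0.17 (limma adjusted p = 1). Cacnb1 lay between -0.17 and 0.02 over the 4 groups and Cacnb2 between 0.05 and 0.20. Cacnb4, the main cerebellar beta subunit, had fold changes of 0.16 to 0.39 over the 4 groups, each with an SE of 0.26. Cacna2d1, the subunit that binds gabapentin, averaged 556 ± 139 units after 10 halothane and 526 ± 85.1 after 10 isoflurane exposures, against 489 ± 149 in controls. Cacng1, the gamma subunit of skeletal muscle, had fold changes between -0.17 and 0.13, and averaged 76.2 ± 8.86 units in controls.

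Itpr1, the IP3 receptor that is most abundant in Purkinje cells, was the release channel with the lowest p-values. Its signal was 886.9, 675.1 and 770.8 units after 5 halothane exposures and 794.9, 1043.5 and 1171.1 after 10. It was 722.8, 644.1 and 727.1 after 5 isoflurane exposures and 1046.1, 638.6 and 1047.9 after 10, while controls spanned 454.4 to 936.6 with a median of 628.65. After 10 exposures of each agent 2 of 3 arrays lay above every control and 1 inside the control range, and after 5 exposures all arrays lay inside it. The limma log2 fold change was 0.62 ± 0.18 (1.53-fold; 95% interval 0.24 to 1.00; adjusted p = 0.331) after 10 halothane exposures. It was 0.46 ± 0.18 (1.37-fold; 95% interval 0.08 to 0.84; adjusted p = 0.455) after 10 isoflurane exposures and 0.36 ± 0.12 (adjusted p = 0.361) for all exposed arrays. Without replicate 3, a high spike-in array, the fold change was 0.50 after 10 halothane and 0.34 after 10 isoflurane exposures. These fits kept the 5 high spike-in controls. Among the low spike-in arrays alone the differences were 0.31 and 0.16.

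All 5 Itpr1 probe sets gave positive fold changes after 10 halothane exposures: the other 4 had 0.86 ± 0.41, 1.03 ± 0.49, 0.94 ± 0.47 and 0.78 ± 0.34, with limma adjusted p between 0.643 and 0.67. After 10 isoflurane exposures the other 4 gave 0.58, 0.36, 0.24 and -0.25 in the same order. After 5 halothane exposures they gave 0.46, -0.195, -0.34 and -0.27, against 0.26 for the probe set kept. Between high and low spike-in arrays, the probe sets with 1.03 and 0.94 differed by -1.004 and -1.007 (limma adjusted p = 0.00579 and 0.00335). The high level held 5 controls and 1 array after 10 halothane exposures, and the low level 7 and 2. Agreement of sign over the tested probe sets of a gene was not general. Of the 16 genes with at least 2 tested probe sets, the signs agreed for 7 after 5 and 7 after 10 halothane exposures. They agreed for 8 after 5 isoflurane and for 6 after 10 isoflurane exposures.

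The other listed markers of Purkinje cells that were measured had positive fold changes after 10 exposures of either agent. Of a list of 7 Purkinje markers 4 were measured, Itpr1 among them. Calb1, which encodes the calcium buffer calbindin, had fold changes of 0.64 ± 0.20 (adjusted p = 0.39) after 10 halothane and 0.47 ± 0.20 (adjusted p = 0.495) after 10 isoflurane exposures. Pvalb, which encodes the calcium buffer parvalbumin, had 0.74 ± 0.24 (adjusted p = 0.422) and 0.66 ± 0.24 (adjusted p = 0.385) in the same comparisons by limma. Gad1, an enzyme of GABA synthesis, had 0.17 ± 0.16 (adjusted p = 0.833) and 0.35 ± 0.16 (adjusted p = 0.533). Without Itpr1, 2 of the 3 markers had an unadjusted p under 0.05 after 10 halothane exposures (7.52% of all probe sets) and 3 of the 3 after 10 isoflurane exposures (9.05%), and none passed the adjusted threshold. The summed signal of Calb1, Pvalb and Gad1 spanned 1731.6 to 2465.9 units after 5 halothane exposures, 2362.7 to 3364.6 after 10 halothane, 2028.4 to 2542.5 after 5 isoflurane and 2054.7 to 3541.3 after 10 isoflurane exposures, against 1671.6 to 2558.8 in controls. None of the 3 was near 0 in any group. The highest Pvalb values, 965.1 after 10 halothane and 1080.4 after 10 isoflurane exposures, were on replicate 3, a high spike-in array. So were the highest Calb1 values of these groups, 1450.7 and 1297.6. The highest Gad1 value after 10 isoflurane exposures, 1163.3, was on replicate 3 too, but that after 10 halothane exposures, 1031.6, was on replicate 2. These markers were not split by spike-in level. Of the genes described here as Purkinje cell genes but not listed, Cacna1a had -0.11 and -0.32 after 10 halothane and 10 isoflurane exposures. Atp2b2 had 0.01 and 0.24, Scn1a 0.60 and 0.61, and Atp2a3 0.52 and 0.31. The part of the share of cerebellum in each sample in the Itpr1 values was not tested.

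**Figure D3:**
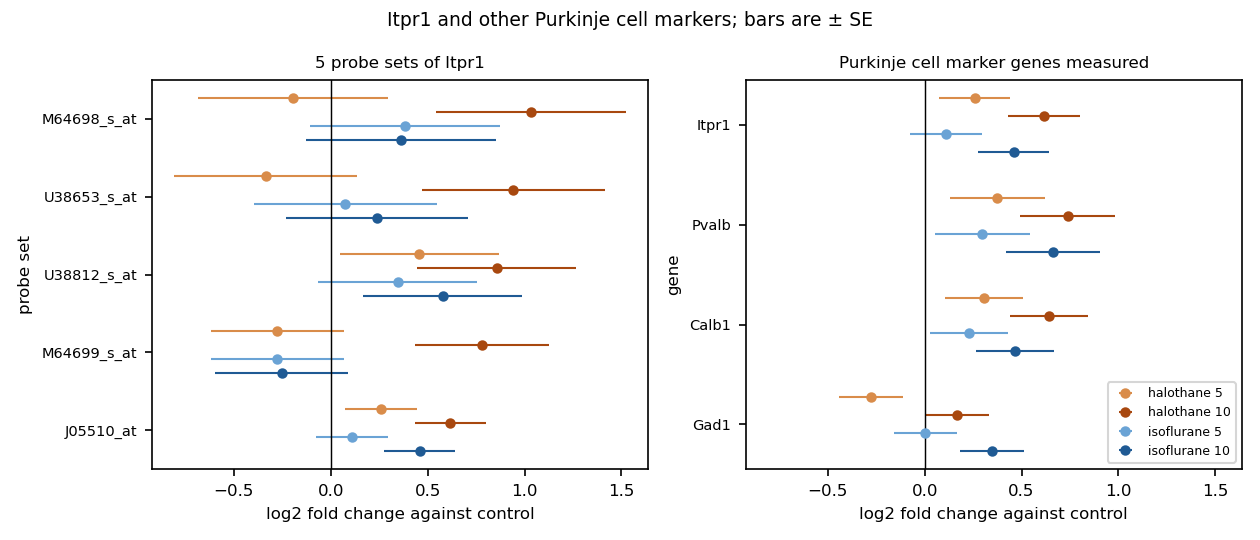
Log2 fold change against control (horizontal axes) of the 5 Itpr1 probe sets (left) and of the 4 Purkinje marker genes measured (right), for 5 and 10 halothane and 5 and 10 isoflurane exposures; points are limma estimates and bars ± SE. All 5 probe sets lie above 0 after 10 halothane exposures and on both sides of 0 after 5, and Calb1 and Pvalb lie beside Itpr1.

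Itpr2, Itpr3 and Ryr2 had no unadjusted p under 0.05 against control. Itpr2, the IP3 receptor prominent in astrocytes, had 36.9, 36 and 27 units after 5 halothane exposures, 20.2, 21.1 and 5.5 after 10 halothane, 26.9, 21.3 and 7.4 after 5 isoflurane and 19.4, 44.3 and 6 after 10 isoflurane exposures, while controls spanned 6.1 to 43.7 with a median of 19.85. All groups overlapped the controls, and replicate 3 of every exposed group was its lowest array. The limma fold change was 0.56 ± 0.28 (adjusted p = 1) after 5 halothane exposures. Itpr3 lay between -0.08 and -0.04 over the 4 groups. Ryr2, the ryanodine receptor of heart and brain, had -0.35 ± 0.33 after 10 isoflurane exposures and 0.07 ± 0.33 after 10 halothane exposures, and averaged 44.1 ± 14.3 units in controls.

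Among the SERCA pumps, Atp2a2, which encodes the housekeeping form SERCA2, averaged 1931 ± 300 units after 5 halothane, 1758 ± 97.1 after 10 halothane, 1691 ± 89.0 after 5 isoflurane and 1923 ± 240 after 10 isoflurane exposures (SD, n = 3 each), against 1739 ± 134 in controls (SD, n = 12). Its intervals were among the narrowest, with an SE of 0.09 log2 units. Atp2a3, which encodes SERCA3 and is prominent in Purkinje cells and blood cells, had 222.6, 274.8 and 428.8 units after 10 halothane exposures and 240.7, 182.2 and 387.5 after 10 isoflurane exposures. It had 230.7, 202.3 and 353.2 after 5 halothane and 235.9, 232.5 and 298.8 after 5 isoflurane exposures, while controls spanned 148.6 to 303.7 with a median of 207.75. In every exposed group replicate 3 was the highest array. Atp2a3 was described in full after its values were seen, and its limma fold change after 10 halothane exposures was 0.52 ± 0.23 (adjusted p = 0.653). Within the low spike-in arrays the difference was 0.18 (2 exposed and 7 control arrays), and within the high ones 1.15 (1 exposed and 5 control arrays). On the low arrays alone the Atp2a3 difference was -0.02 after 5 halothane and -0.06 after 10 isoflurane exposures, against 0.29 and 0.31 in the fit of all arrays, and on the high arrays it was 0.86 and 1.00. Atp2a1, the skeletal muscle SERCA, had 11.9, 35.6 and 20.5 units after 5 isoflurane exposures, against 21.4 to 38.1 in controls with a median of 29.45. The isoflurane arrays lay on both sides of that median, and the fold change was -0.36 ± 0.21 (limma adjusted p = 1).

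The plasma membrane pumps gave no unadjusted p under 0.05 in any comparison with control. Atp2b2, the form prominent in Purkinje cells, had fold changes of 0.11 and 0.01 after 5 and 10 halothane exposures and 0.11 and 0.24 after 5 and 10 isoflurane exposures, each with an SE of 0.12. In controls Atp2b2 averaged 516 ± 68.3 units (SD). Atp2b1, the widely expressed form, was between -0.18 and -0.04 in the 4 groups. Atp2b3, a neuronal form, was between 0.18 and 0.32 with an SE of 0.23, and Atp2b4 between -0.09 and 0.29 with an SE of 0.45.

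The number of exposures and the agent were compared directly among the exposed groups, in 5 further tests with no gene of the 36 past the adjusted threshold. The background for that threshold was 0.0135% of probe sets for 10 against 5 halothane exposures and for halothane against isoflurane at 5 exposures, and 0% for the other 3 tests. For 10 against 5 halothane exposures 2 of 36 genes had an unadjusted p under 0.05 (background 3.76%), Scn7a with -0.62 ± 0.24 and Itpr2 with -0.78 ± 0.35 (limma adjusted p = 1 for both). For 10 against 5 isoflurane exposures 1 gene did (background 3%), Cacna1a with -0.34 ± 0.13, and Scn7a had -0.38 ± 0.24. Itpr1 had 0.36 ± 0.23 for 10 against 5 halothane exposures and 0.35 ± 0.23 for 10 against 5 isoflurane exposures.

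For halothane against isoflurane at 5 exposures 1 gene had an unadjusted p under 0.05 (background 2.98%), Cacna1a with -0.27 ± 0.13, and Cacna1d had -0.39 ± 0.21. At 10 exposures 0 of 36 did (background 3.11%), and Cacna1a had 0.21 ± 0.13 there. For Scn7a the difference of halothane from isoflurane at 10 exposures was -0.18, with a 95% interval of -0.68 to 0.31, and for Itpr1 it was 0.16, with an interval of -0.32 to 0.64. For Scn1a it was -0.01, with an interval of -0.67 to 0.65. These intervals allow sizeable differences in either direction, and the concentrations of the agents were not matched. In the test of whether the effect of exposure number differed between the agents, 1 of 36 genes had an unadjusted p under 0.05 (background 2%), Cacna1a with 0.48 ± 0.18 (limma adjusted p = 1), and Itpr2 had -0.98 ± 0.49.

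Genes of the set passed the adjusted threshold between the spike-in levels, in a comparison chosen after the data were seen. In a limma fit with group and level, 11 of 36 genes (30.6%) differed between the 9 high and 15 low arrays at adjusted p under 0.05, against 20% of all probe sets. Of the 11, 3 were higher and 8 lower on the high arrays, where 567 of all probe sets were higher and 909 lower. Scn2a was lower by 0.96 ± 0.09 log2 units (adjusted p = 7.03e-07), with 206.9 to 434.4 units on the high arrays (median 259.7) against 403.5 to 609.5 on the low arrays (median 526.4). The levels overlapped through 1 high array, control 1, and 1 low array, control 2. The other genes lower on the high arrays were Ryr2 with a difference of -0.78, Atp2b4 with -0.78, Itpr2 with -0.55, Scn9a with -0.55, Cacna1b with -0.34, Scn7a with -0.33 and Atp2b2 with -0.26. Scn4a with 0.79, Cacna2d1 with 0.43 and Atp2b3 with 0.39 were higher there. Spike-in transcripts are added by the experimenter, and what else differed between these arrays was not tested. The ratio of the 3' to the 5' actin probe sets, a sign of RNA integrity, was 1.421 to 1.644 on the high arrays and 1.36 to 2.139 on the low arrays.

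**Figure D4:**
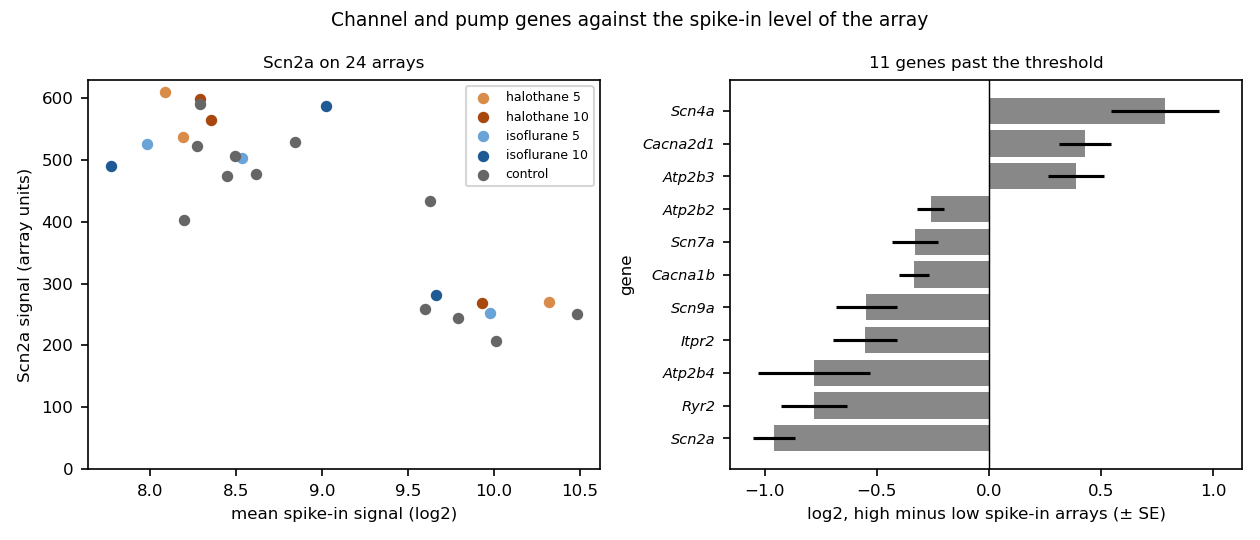
Left, Scn2a signal in array units against the mean log2 signal of the bacterial spike-in probe sets on the 24 arrays, coloured by group; right, log2 difference of high from low spike-in arrays (bars from 0, lines ± SE) for the 11 genes past adjusted p under 0.05. Scn2a lies at 206.9 to 434.4 units on the high control arrays and at 252.7 to 281.4 on the high arrays of the exposed groups.

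Within each spike-in level the values of Scn7a, Itpr1 and Scn1a after 10 exposures kept their signs. These genes were chosen by lowest p in these same arrays, so kept signs were likely from the start and lend no support. Not every named gene kept its sign. On the low arrays Cacna1h, close to the floor, had 0.58 after 10 halothane exposures, and on the high arrays -0.04. Its values after 10 isoflurane exposures were 0.38 on the low and -0.04 on the high arrays. After 10 halothane exposures Scn7a differed from control by -0.60 on the low arrays and -0.86 on the high arrays, and after 10 isoflurane exposures by -0.47 on the low and -0.57 on the high arrays. Itpr1 differed by 0.31 on the low and 1.11 on the high arrays after 10 halothane exposures, and by 0.16 on the low and 0.95 on the high arrays after 10 isoflurane exposures. Scn1a differed by 0.52 on the low and 0.70 on the high arrays after 10 halothane exposures, and by 0.64 on the low and 0.50 on the high arrays after 10 isoflurane exposures. After 5 exposures the signs were not all kept: Scn1a after 5 halothane exposures had 0.32 on the low and -0.11 on the high arrays, and Itpr1 after 5 isoflurane exposures had -0.10 on the low and 0.43 on the high arrays. Each high-level value rests on 1 exposed array and 5 controls, and each low-level value on 2 exposed arrays and 7 controls.

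Genes that work with these channels were read from 3 further lists. Of 8 tested sodium pump and exchanger genes (13 listed), 0 had an unadjusted p under 0.05 against control in any group. Of these, Slc8a2, a sodium-calcium exchanger, had -0.35 ± 0.20 after 10 halothane exposures. Of 21 tested calcium buffers and sensors (30 listed), 2 had an unadjusted p under 0.05 after 10 exposures of each agent, Calb1 and Pvalb, described above as Purkinje markers, and 0 passed the adjusted threshold. Casq1, the calcium buffer of skeletal muscle stores, had 0.48 ± 0.22 after 5 isoflurane exposures (limma adjusted p = 1). Of 15 tested channel partners (21 listed), 1 had an unadjusted p under 0.05 after 10 halothane and 1 after 5 halothane exposures. Ank2, an ankyrin that anchors membrane proteins and was dim here at a control mean of 10.7 units, had 0.24 ± 0.09 after 10 halothane exposures (adjusted p = 0.533), and Homer2, a scaffold that links glutamate and IP3 receptors, had -0.75 ± 0.32 after 5 halothane exposures (adjusted p = 1).

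Markers of other cell types differed on some of the same arrays, with none past the adjusted threshold. Of 4 measured blood markers 3 were lower at unadjusted p under 0.05 after 10 exposures of each agent. They summed to 437.2 to 470.2 units after 10 halothane and 388.1 to 658.9 after 10 isoflurane exposures, against 543.2 to 996.1 in controls. The 4 measured choroid plexus markers summed to 4271.5 to 6848.6 units after 10 halothane and 4388.1 to 5722 after 10 isoflurane exposures, against 3008.2 to 4904 in controls. After 5 halothane exposures they summed to 1983.2 to 4216.6 units, against the same controls. At unadjusted p under 0.05, 2 of them were higher after 10 halothane exposures, 1 was higher and 1 lower after 10 isoflurane exposures, 1 was higher after 5 isoflurane and 1 lower after 5 halothane exposures. The 8 measured neuronal markers, of 12 listed, summed to 6580.6 to 10483 units after 10 halothane and 7924 to 10243 after 10 isoflurane exposures, against 7796.7 to 10467 in controls. Of the tested markers of astrocytes (8), oligodendrocytes (7), microglia (6), endothelium (5), skeletal muscle (8), heart (6), smooth muscle (5) and pituitary (8), no list had more than 1 with an unadjusted p under 0.05 in any exposed group. The part of blood, choroid plexus or regional content in the values of the channel and pump genes was not tested.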

How the data were processed

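Signals of 24 single-colour arrays of whole rat brain were used. The deposited values are linear intensity values, 1 per probe set and array. Their trimmed mean is nearly the same on every array, and the scaling behind this is not stated. Software, scan dates and detection calls were not given in the sources used here. Gene symbols came from the platform annotation: of 8740 probe sets without controls, 7006 had 1 symbol, 308 several and 1426 none, and all 38 member symbols matched the RefSeq gene table. Signals below 16.5 units, the 25th percentile, were set to it, log2 was taken, and probe sets above it on at least 3 arrays were kept (7389). One fit of all 5 groups with limma 3.58.1 in R 4.3.3, with an intensity trend and no replicate block, gave 10 comparisons with two-sided p-values adjusted by Benjamini-Hochberg over all 7389. The fit was tested on simulated data. Depth is not defined for arrays, and the number of arrays limits the precision. Signals of different probe sets were ranked only to choose 1 probe set per gene and the levels given, since brightness also depends on the probes. The spike-in level is the mean log2 signal of 9 bacterial probe sets, split at its widest gap of 0.574. Members and gene lists were chosen with earlier results of these data known.

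Values on every array are given by rule for the 3 members with the lowest p in each comparison with control and the 2 lowest in each other comparison. Levels are given for the brightest member of each role and the 3 dimmest, and up to 3 genes are named from each further list. Atp2a3 was added to the text after its values were seen.

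Replicate numbers in the titles were checked as pairs through the correlation of deviations from group means. Every same-numbered pair exceeded 0.1 for 10 with 5 isoflurane exposures (0.149 to 0.46) and for 10 isoflurane with 10 halothane exposures (0.222 to 0.468), but not for the other groups compared. It also held for 5 isoflurane with 10 halothane (0.293 to 0.52) and 10 isoflurane with 5 halothane exposures (0.111 to 0.258), which were not compared. The highest value of each range was that of the replicate 3 arrays, which share the high spike-in level. The parts of replicate number and spike-in level in these correlations were not tested. Alternatives covered scaling, floor, filter, trend, array weights, samples, replicate block, spike-in level, single arrays left out and the probe set used per gene.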

Additional observations from a re-analysis of the deposited data

How the results depend on the processing

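The results were recomputed under 15 other settings and in 24 fits that left out 1 array each. In 389 of 390 recomputed counts none of the tested genes of the set passed the adjusted threshold. The number of genes tested was not 36 under every floor and filter setting. The exception was Scn2b after 5 halothane exposures on the high spike-in arrays alone, a comparison with 1 exposed array. Its signal was 20.7 units on that array and at most 8.1 on the 5 high controls. All these controls lay below the floor of 16.5, which left no spread among them. For all exposed arrays the median fold change of the genes ran from -0.0081 to 0.19 over the settings, so its sign was not stable. For 25 combinations of gene and comparison, chosen by lowest p and without Atp2a3, the fold change kept its sign in 960 recomputed values. It changed sign in 1, Cacna1a after 5 halothane exposures, which became 0.037 with the mean over all its probe sets. Since the combinations were chosen by lowest p in these same data, kept signs were likely from the start and lend no support. Kept signs also include values near 0, such as Scn7a for all exposed arrays under the replicate block, given below. With 1 array left out, Itpr1 ranged from 0.50 to 0.78 after 10 halothane and from 0.34 to 0.70 after 10 isoflurane exposures, and Scn7a from -0.77 to -0.49 and from -0.70 to -0.36.

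With the replicate number as a replicate block, 0 of 36 genes passed in every comparison. The median fold change of the genes was then 0.23, 0.06, 0.19, 0.17 and 0.19 for 5 and 10 halothane, 5 and 10 isoflurane and all exposed arrays against control. Controls 4 to 12 have no partner of the same number among the exposed arrays. Under the block Scn7a had -0.0081 for all exposed arrays, against -0.32 without it. With 1 array left out, the count of genes at an unadjusted p under 0.05 ranged from 0 to 4 after 5 halothane, 3 to 4 after 10 halothane, 0 to 1 after 5 isoflurane and 1 to 5 after 10 isoflurane exposures. Groups of 3 arrays and the floor limit what could be detected for the dimmest genes.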
